A study of Rattus norvegicus with 24 samples.

Results

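The genes described here fell sharply in the injured rat spinal cord within a day of clip compression and were back at the level of sham-operated cord 8 weeks later. They were chosen from the log2 expression values by a fixed rule: a day 1 mean at least 1.5 log2 units below the sham mean, and a day 56 mean within 0.4 of it. Of 14218 genes with a probe set of a single symbol, 988 met the first condition, and 83 met both and belong to the group. A further 4 genes met both and are not described here: Aqp4, Atp1b2, Agt and Acsbg1. Of the 988 genes, 470 were still at least 1.5 below sham on day 56 and 410 lay between 0.4 and 1.5 below it.

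The 24 arrays hold RNA from the T7 segment of female Wistar rats, 1 rat per array and 4 rats per group. Sham rats had a laminectomy without the clip, at a time before sampling that the sources at hand do not give. The 5 injured groups had a T6 to T8 laminectomy, then a modified aneurysm clip of 35 g closed on the cord for 1 min, and were sampled at 1, 3, 7, 14 or 56 days. By the methods, the operation was under halothane, and an antibiotic (amoxicillin with clavulanic acid) was given over 7 days afterwards, with analgesia and saline. The injured groups thus also differed in how long after these drugs they were sampled. Days 1 and 3 fell within the antibiotic course and days 14 and 56 after it, so day 14 against day 3 also differs in this. The tissue is whole cord at the injury epicentre, so that fewer cells of a type and less RNA per cell cannot be told apart. Defining genes of the labelled tissue were high in sham cord, with group means of 14.31 for the synaptic gene Snap25, 15.35 for the myelin gene Mbp and 14.74 for the astrocyte gene Gfap.

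Astrocytes take up transmitter and ions, couple into networks and wrap vessels and synapses, and after injury they are known to retract, die at the epicentre and form a scar border around it. The meninges and the barrier cells of the cord surface carry their own transporters and secreted carrier proteins. Most cells also hold a circadian clock whose output genes are transcription factors with a daily rhythm. Genes from all of these groups were among the 83.

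Sham means of the 83 genes ranged between 4.14 and 15.09, with a median of 9.44, against a median of 6.61 over all genes. Lowered is the more accurate word for the day 1 state, since only 3 of the genes had a day 1 mean under 3.38, the highest group mean among 27 control probe sets with no target in the sample. On day 1, 81 of the 83 genes had all 4 injured arrays below all 4 sham arrays, where 19.1% of all genes did, and this follows from the rule. The genes lie on 19 chromosomes.

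The sham, day 1 and day 56 arrays chose the genes, so differences from sham are given as descriptions without a test. The days between did not enter the rule. It still sets both ends of each course, so a rise at some time between day 1 and day 56 follows from it. The arrays between show only when the genes rose. Over the 83 genes the median difference from sham was -2.06 on day 1, -1.41 on day 3, -0.99 on day 7, -0.57 on day 14 and -0.08 on day 56. Over all genes it stayed between -0.05 and 0.03 on every day. The 470 genes that remained low took another course, with medians of -3.05, -1.20, -2.33, -2.34 and -2.15 on the same 5 days. They stood nearer to sham on day 3 than on any other day and moved away again on day 7. The median of the 83 genes was nearer to sham on each later day, although 17 of the 83 were lower on day 7 than on day 3.

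**Figure D1:**
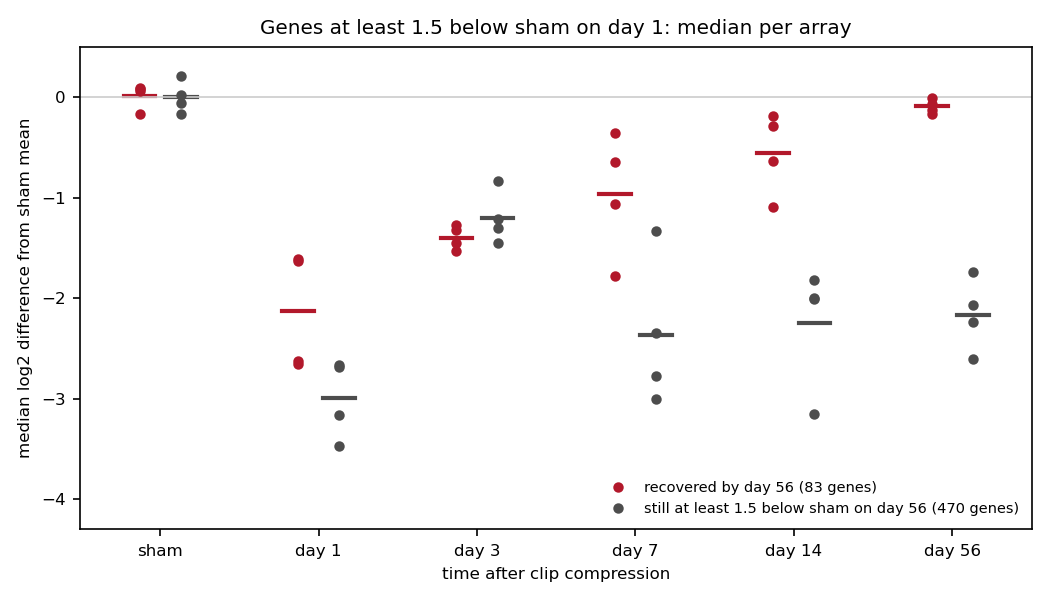
Median log2 difference from the sham mean in each array (points; short lines are the means of 4 arrays) at sham, day 1, 3, 7, 14 and 56, for the 83 genes that recovered and the 470 genes still at least 1.5 below sham on day 56. Both sets are about equally low on day 3 and separate from day 7 on, and the day 1 and day 56 positions follow from how the sets were chosen.

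Day 3, day 7 and day 14 were compared with each other in limma, with p-values adjusted over all probe sets with a single symbol. On day 14 against day 3, 44 of the 83 genes were higher and 0 were lower, where 33.8% of all genes were called higher and 24% lower. Many of the calls over all genes fell on dim probe sets. Among the 9234 genes whose mean reached 5 in any of the groups, 18.3% were called higher, against 44 of 81 of the recovering genes. Of the 470 genes that remained low, 1 was called higher on day 14 and 251 were called lower. Both sets were chosen by where they stood on day 56, so their opposite directions are in part set by that choice. On day 7 against day 3, 20 of the 83 genes were higher and 0 lower, where 12.8% of all genes were higher and 17.1% lower, and 3 and 220 of the 470 genes. Between the last pair of these days little passed the test: on day 14 against day 7, 3 of the 83 genes were higher and 1 lower, where 21.8% of all genes were higher and 6.18% lower. Leaving out the dim probe sets left 0.162% of all genes higher and 1 of the 83 genes, Lratd1.

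The genes returned at different times. Only 3 were within 0.4 of sham from day 7 on, namely Pamr1, Trim9 and Ttyh1. Another 25 came within this range on day 14 and stayed there, and 55 reached it only on day 56. The number of genes within 0.4 of sham was 3 on day 3, 3 on day 7 and 28 on day 14, where 57.3%, 58.5% and 63.9% of all genes lay in that range. The day 7 number was 20 without day 7 replicate 2 and 6 without sham replicate 4, and the day 14 number was 18 without day 14 replicate 2 and 43 without day 14 replicate 3. The lowest mean fell on day 1 for 68 genes and on day 3 for 15 genes.

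**Figure D2:**
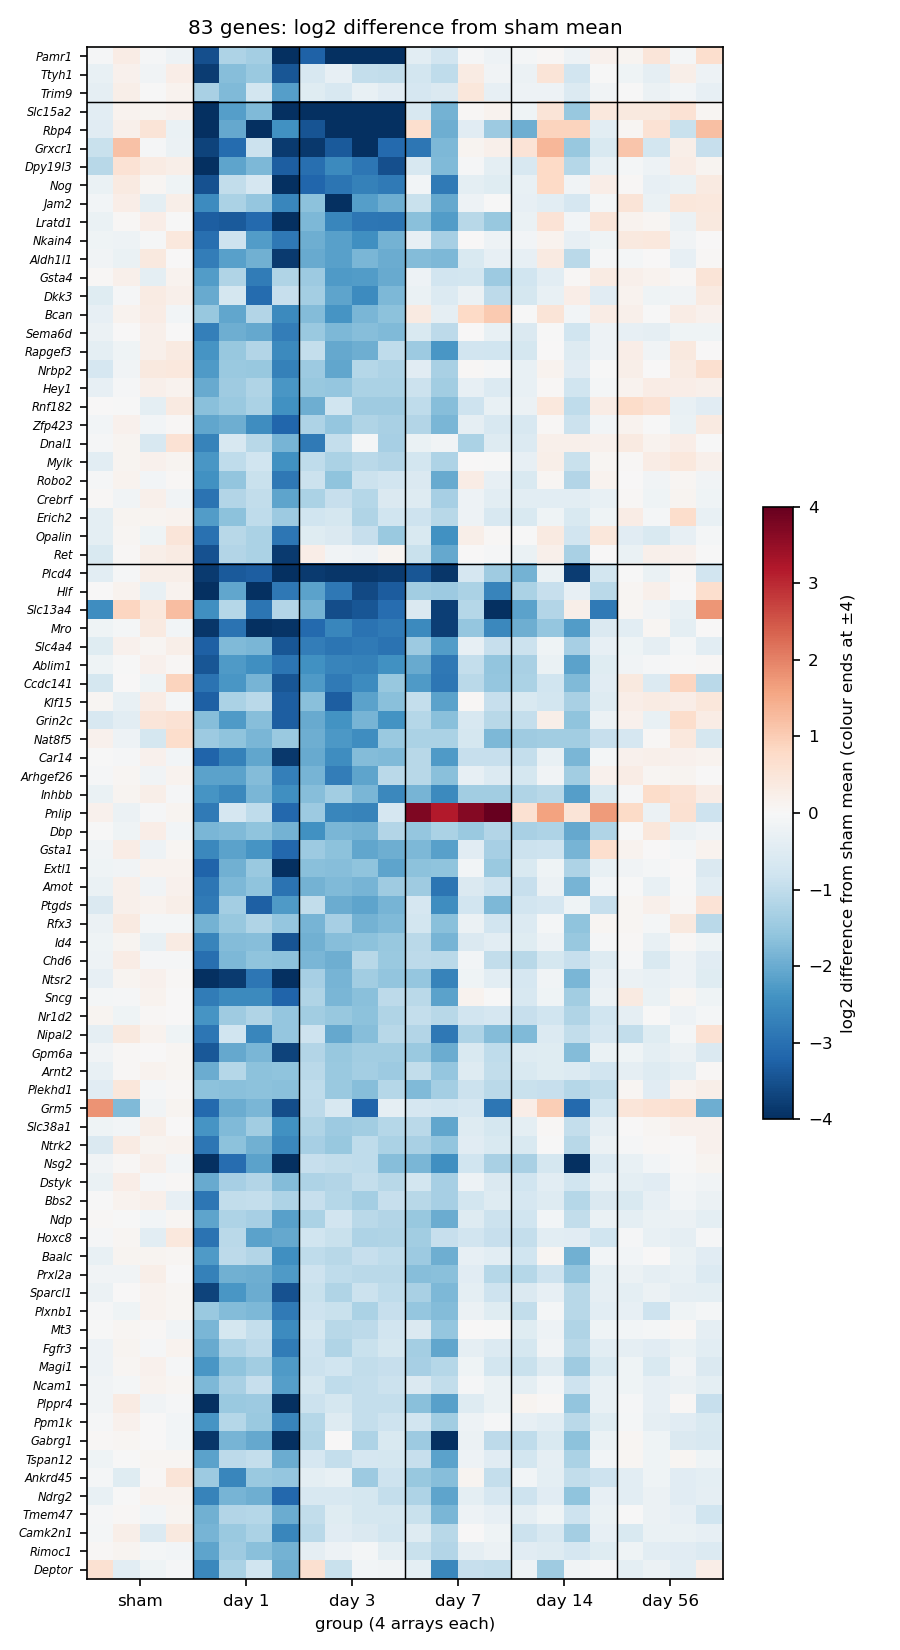
Log2 difference from the sham mean of the 83 genes (rows) in the 24 arrays (columns, 4 per group, replicates 1 to 4 from left to right). Horizontal lines part the 3 genes within 0.4 of sham from day 7 on, the 25 from day 14 on and the 55 on day 56, counts that move with single arrays of day 7 and day 14; rows in each block run from the lowest day 3 value to the highest.

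Arrays of 1 group did not stand at the same point. Per-array medians on day 1 were -2.66, -1.63, -1.61 and -2.63, and on day 3 they lay close together, between -1.54 and -1.28. On day 7 they were -1.06, -1.78, -0.36 and -0.65, and on day 14 they were -0.64, -0.19, -1.10 and -0.28. Replicate 2 of day 7 and replicate 3 of day 14 were the lowest of their groups. The same arrays were also the lowest for the 470 genes that remained low, with medians of -3.00 and -3.16. Without day 7 replicate 2, the number of genes called higher on day 7 against day 3 was 30 and not 20, and 20 genes and not 3 were within 0.4 of sham on day 7. Without day 7 replicate 3 the calls numbered 12.

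Of 42 gene lists, that of genes enriched in astrocytes held the most members. Of its 44 measured genes, 21 were at least 1.5 below sham on day 1, and 11 belong to the 83: Ntsr2, Slc15a2, Aldh1l1, Ttyh1, Slc4a4, Ndrg2, Id4, Ntrk2, Grin2c, Bcan and Fgfr3. The median of the whole list was -1.38 on day 1, -0.97 on day 3, -0.59 on day 7, -0.23 on day 14 and -0.09 on day 56. On day 14 against day 3, 22 of the 44 genes were higher and 4 lower, where 33.8% of all genes were higher and 24% lower. The 44 genes include the 11 members, and the list was written with earlier results of these data known. The count is thus not separate from the choice of the group. The log2 of the summed level of the 33 list genes outside the group moved alongside. It was 16.72 to 17.10 in sham, 15.41 to 16.22 on day 1, 16.39 to 16.52 on day 3, 15.82 to 16.81 on day 7, 16.27 to 16.92 on day 14 and 16.95 to 17.09 on day 56. Only the 83 genes were taken out of the list for this sum, not the 4 that met the rule and are not described here. The sum is thus not separate from the choice of the group either. How far the amount of astrocyte RNA accounts for the single genes was not tested.

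Ntsr2, a neurotensin receptor enriched in astrocytes, had the largest day 1 difference of the 83 genes. Its log2 values were 11.16, 11.60, 11.66 and 11.55 in sham, 6.19, 7.65, 8.62 and 4.16 on day 1, and 10.17, 9.64, 10.10 and 9.91 on day 3. They were 9.95, 8.82, 11.32 and 11.07 on day 7, 10.82, 11.35, 9.65 and 11.16 on day 14, and 11.25, 11.20, 11.30 and 11.02 on day 56. The day 14 values overlapped those of day 3, and the change of 0.79 (SE 0.67) did not pass the test (limma adjusted p = 0.331). The widely spread day 1 arrays entered that SE too, with an SD of 1.94, against 0.24 on day 3 and 0.76 on day 14. Ttyh1, a volume-regulated chloride channel family member, stood at -2.60 on day 1, -0.73 on day 3 and -0.12 on day 14 relative to sham.

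Slc4a4, the electrogenic sodium bicarbonate cotransporter, was late. Its values were 9.45, 10.95, 10.87 and 9.28 on day 1 and a tight 9.96, 9.79, 9.89 and 9.76 on day 3, then 11.27, 10.47, 12.39 and 11.80 on day 7 and 11.84, 12.54, 11.38 and 12.38 on day 14, with 12.21 to 12.95 in sham. Every array of day 7 and day 14 was above every array of day 3. The change was 1.63 (SE 0.39, limma adjusted p = 0.00325) on day 7 and 2.19 (SE 0.39, limma adjusted p = 0.000185) on day 14, both against day 3.

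Aldh1l1, a folate enzyme widely used as an astrocyte marker, had 8.76, 9.44, 7.99 and 9.03 on day 14, against 7.06, 6.89, 7.26 and 7.11 on day 3. The groups did not overlap, and the rise was 1.72 (SE 0.38, limma adjusted p = 0.00139). Bcan, the brain-specific lectican of the extracellular matrix, passed the sham mean during its return. It had 11.12, 10.41, 11.56 and 11.81 on day 7, against 9.04, 8.41, 8.93 and 9.13 on day 3, with sham at 10.43 to 11.06. The rise over day 3 was 2.35 (SE 0.28, limma adjusted p = 4.04e-06), and the day 7 mean stood 0.46 above the sham mean.

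Smaller rises on day 14 against day 3 passed the test for Grin2c, an NMDA receptor subunit found in astrocytes (1.52, limma adjusted p = 0.00567), for Id4, an inhibitor of basic helix-loop-helix factors (1.14, adjusted p = 0.0152), and for Ntrk2, the receptor of BDNF (0.79, adjusted p = 0.0261). The Ntrk2 call was lost without day 14 replicate 2 or 4 or day 3 replicate 2, with adjusted p-values of 0.0646 to 0.0895, with median centring (adjusted p = 0.0696) and with the mean of all its probe sets, where the change was 0.21 (adjusted p = 0.6). Fgfr3 and Ndrg2 did not pass. Ndrg2 differed from sham by -0.73 on day 3, -1.11 on day 7 and -0.81 on day 14. Genes of the same list outside the group showed other ends: Slc7a10, an astrocyte amino acid exchanger, differed from sham by -3.92 on day 1 and by -3.91 on day 56, while Lcat, the cholesterol acyltransferase, differed by -0.45 on day 7 and by 1.49 on day 56.

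Plcd4, Sparcl1 and Gpm6a, outside the astrocyte list, came back at different times. Plcd4, a phospholipase C, was at 4.79, 4.71, 4.71 and 4.79 on day 3, as low as on day 1, and at 6.72, 8.33, 4.82 and 7.88 on day 14, with sham at 8.19 to 8.83. Day 14 replicate 3 was still at the day 3 level, and the rise of 2.19 (SE 0.68) passed the test (limma adjusted p = 0.0135), but not with only the 2 groups fitted (adjusted p = 0.0577). Sparcl1, a matricellular protein of astrocytes, had differences from sham of -2.88, -0.995, -1.08, -0.59 and -0.35 over the 5 days. Those of Gpm6a, a membrane glycoprotein of neurites, were -2.75, -1.36, -1.27, -0.76 and -0.35, and neither gene passed the test on day 14 against day 3.

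Transport and ion genes were spread over the return. Slc38a1, a glutamine carrier, had 10.87, 11.31, 10.34 and 10.93 on day 14, against 10.07, 9.82, 9.90 and 10.14 on day 3, and rose by 0.88 (SE 0.27, limma adjusted p = 0.0135) without overlap. Car14, a membrane carbonic anhydrase, rose by 1.21 (SE 0.37, limma adjusted p = 0.012; 0.0558 with only the 2 groups fitted), and its lowest day 14 array, replicate 3, was under the highest day 3 array at 9.08. Nkain4, which interacts with the sodium pump, had 8.60, 8.88, 8.39 and 8.54 on day 14, against 6.79, 6.56, 6.27 and 6.84 on day 3, and 8.52 to 9.15 in sham. Its rise was 1.99 (SE 0.36, limma adjusted p = 0.000228). Of 308 measured solute carriers, 34 were at least 1.5 below sham on day 1 and 4 belong to the group, Slc4a4, Slc13a4, Slc15a2 and Slc38a1, and 125 were higher and 55 lower on day 14 against day 3, against the same 33.8% and 24% of all genes. The median of that list differed from sham by -0.06 on day 3 and 0.03 on day 14.

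The genes lowest on day 3 included Slc15a2, Rbp4 and Pamr1, which also had the largest changes of the 83 genes on day 14 against day 3. The low day 3 value is part of that change, so the 2 descriptions are not separate findings. Slc15a2 is the high-affinity peptide transporter that clears dipeptides from extracellular fluid. Rbp4 is the plasma carrier of retinol, and Pamr1 encodes a secreted protein with a peptidase-like domain. Their upstream sequences are shown because these 3 genes had the largest day 14 changes, the 250 bases before the annotated start in RefSeq (GRCr8), 5′ to 3′ on the gene's strand. Capitals mark matches on either strand to the letters of 5 motifs listed further on.
Slc15a2, chr11:77519315-77519564, plus strand: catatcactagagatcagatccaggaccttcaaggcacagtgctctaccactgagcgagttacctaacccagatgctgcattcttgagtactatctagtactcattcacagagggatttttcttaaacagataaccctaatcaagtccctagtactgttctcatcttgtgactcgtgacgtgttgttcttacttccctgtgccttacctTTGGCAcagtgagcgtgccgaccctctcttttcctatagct
Rbp4, chr1:245313552-245313801, minus strand: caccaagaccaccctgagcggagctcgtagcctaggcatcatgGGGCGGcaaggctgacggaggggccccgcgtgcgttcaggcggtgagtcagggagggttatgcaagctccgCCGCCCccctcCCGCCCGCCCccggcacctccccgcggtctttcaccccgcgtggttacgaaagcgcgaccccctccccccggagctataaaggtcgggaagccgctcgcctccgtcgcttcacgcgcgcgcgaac
Pamr1, chr3:109343796-109344045, plus strand: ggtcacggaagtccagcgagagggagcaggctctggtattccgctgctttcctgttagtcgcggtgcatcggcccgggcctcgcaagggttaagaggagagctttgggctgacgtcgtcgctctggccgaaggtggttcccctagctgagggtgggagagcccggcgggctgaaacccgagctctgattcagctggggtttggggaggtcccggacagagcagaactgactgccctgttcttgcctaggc

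The motifs were the E-box CACGTG, the D-box TTATGTAA or TTACGTAA, the REV-ERB and ROR half-site AGGTCA, the NFI half-site TTGGCA and the GC box GGGCGG, each sought on both strands. A promoter entry was matched for 67 of the 83 genes. The window of Slc15a2 held 1 NFI half-site, that of Rbp4 held 4 GC boxes, some overlapping, and that of Pamr1 held none of the 5. Over the 67 genes the NFI half-site occurred in 9, or 13.4%, against 12.02% of all 33469 promoters of this length. The GC box occurred in 34, or 50.7%, against 30.5% of all. The 33469 are every entry, whether or not its gene is on the array, while the 67 are 1 entry per gene. The shares of a motif are therefore not of like sets. A match describes the letters in this window and does not show a bound factor.

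Slc15a2 had 8.76, 9.33, 9.28 and 9.35 in sham, 3.43, 6.97, 7.42 and 3.43 on day 1 and 4.69, 3.58, 3.63 and 3.71 on day 3. It was back at 8.53, 7.28, 9.24 and 9.33 on day 7 and 9.01, 9.68, 7.67 and 9.60 on day 14. Day 7 and day 14 lay entirely above day 3. The rise over day 3 was 4.69 (SE 0.74, limma adjusted p = 7.53e-05) on day 7 and 5.09 (SE 0.74, limma adjusted p = 2.3e-05) on day 14. On the linear scale the day 14 rise is 34.1-fold.

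Rbp4 had 7.80, 8.47, 8.79 and 8.01 in sham, 2.98, 6.21, 2.99 and 5.85 on day 1 and 4.82, 2.61, 2.67 and 2.71 on day 3. Day 7 gave 8.93, 6.33, 7.81 and 6.82, and day 14 gave 6.31, 9.17, 9.15 and 7.83. Again no array of day 7 or day 14 reached down to day 3, and the rise on day 14 against day 3 was 4.92 (SE 0.81, limma adjusted p = 9.73e-05). Values near 2.7 are at the level of the control probe sets, so a further fall may not have been measurable.

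Pamr1 had closely spaced arrays after its return, with 8.33, 7.97, 8.71 and 8.56 on day 7 and 8.67, 8.81, 8.54 and 8.91 on day 14, against 5.51, 3.57, 2.94 and 3.60 on day 3. Its sham values were 8.69, 9.04, 8.72 and 8.56. The day 7 arrays were all above the day 3 arrays, with a rise of 4.49 (SE 0.58, limma adjusted p = 9.11e-06). Pamr1 differed from sham by -0.36 on day 7 and by -0.02 on day 14.

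**Figure D3:**
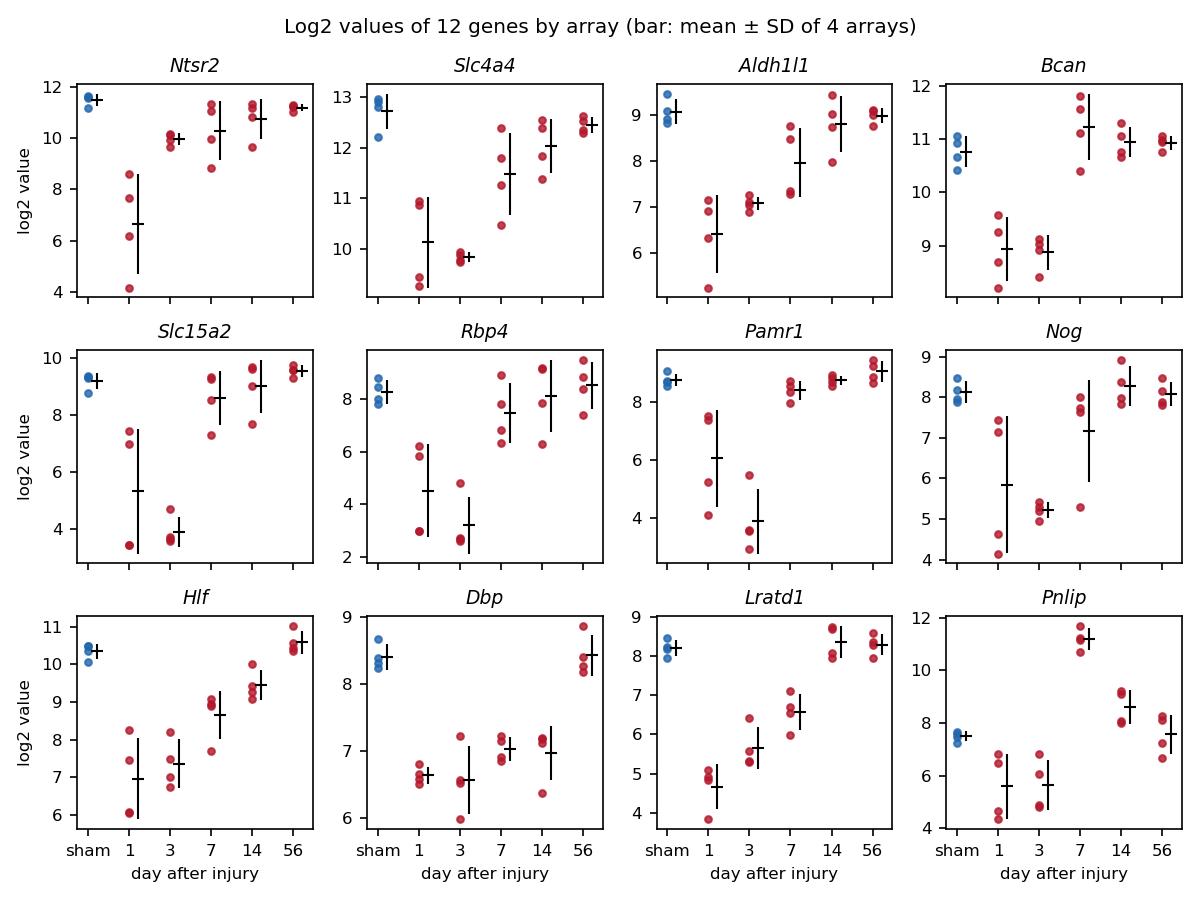
Log2 values of 12 genes in every array (points, sham in blue and injured in red; black bars are the mean ± SD of 4 arrays) at sham and at day 1, 3, 7, 14 and 56. Slc15a2, Rbp4 and Pamr1 are lowest on day 3, Dbp stays low through day 14, Lratd1 climbs up to day 14, and Pnlip exceeds sham on day 7.

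Of the other genes lowest on day 3, Nog, which encodes the secreted BMP antagonist noggin, had 7.83, 8.92, 7.99 and 8.38 on day 14, against 4.95, 5.21, 5.43 and 5.29 on day 3, and 7.87 to 8.48 in sham. The rise was 3.06 (SE 0.62, limma adjusted p = 0.000715). Jam2, a junctional adhesion molecule, rose by 2.29 (limma adjusted p = 0.00277), with a day 3 group of 9.58, 6.41, 9.03 and 9.28 in which replicate 2 was far below the rest. Grxcr1 rose by 3.51 (limma adjusted p = 0.00146), although its sham arrays themselves ranged between 6.01 and 8.06. Dpy19l3, a C-mannosyltransferase, rose by 2.67 (limma adjusted p = 0.000401). Dkk3, a Dickkopf family protein, rose by 1.64 (limma adjusted p = 0.00277).

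Genes known from the surface of the cord gave Ptgds and Slc13a4. Ptgds, the prostaglandin D synthase of meninges and oligodendrocytes, had sham values of 14.52, 15.30, 15.22 and 15.34. It had 14.32, 14.41, 14.92 and 14.17 on day 14, against 14.12, 13.10, 12.98 and 13.23 on day 3, and the rise of 1.10 passed the test without overlap (limma adjusted p = 0.0258). It no longer passed without day 14 replicate 3 or day 3 replicate 2 or 3, with adjusted p-values of 0.0666 to 0.0771, nor with median centring (adjusted p = 0.0565). Slc13a4, a sulfate transporter of the meninges, did not pass, and its arrays were widely spread, with 6.08, 2.91, 5.52 and 1.31 on day 7. Of 25 measured genes on a meningeal and fibroblast list, 17 were higher and 0 lower on day 14 against day 3, where 33.8% of all genes were higher and 24% lower. Their list median was 0.12 on day 1, -1.84 on day 3, 0.43 on day 7, 0.93 on day 14 and 1.77 on day 56. Of the 25, 5 were at least 1.5 below sham on day 1 and 4 were within 0.4 of it on day 56. The list as a whole thus did not share the course of its 2 members.

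The summed level of the 23 list genes outside the group was 11.22 to 13.19 on day 3, against 12.83 to 13.87 in sham, and 14.95 to 16.66 on day 14. Lum and Dcn, both proteoglycans of fibroblasts, differed from sham by -4.54 and -4.37 on day 3. On day 1 the sum was 14.91, 15.28, 13.39 and 15.42, so that replicate 3 was the lowest. Within day 1, 60 of the 83 genes, Slc15a2, Pamr1, Nog and Ntsr2 among them, had replicates 1 and 4 both lower than replicates 2 and 3. Another 9, with Rbp4, Ptgds, Slc13a4, Dkk3, Gsta4 and Hlf, had replicates 1 and 3 both lower than replicates 2 and 4, an order noticed in the values and not tested. The part of meningeal RNA in the day 3 values was not tested. Neutrophil and red cell RNA also stood high on days 1 and 3, with S100a8 at 8.47 and 10.69 and Alas2 at 9.86 and 10.09 on those days, against 4.24 and 6.001 in sham, and their part was not tested.

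Clock output genes formed a small set with a slow return. Of 17 measured clock genes, 5 were at least 1.5 below sham on day 1 and 3 belong to the group: the PAR bZIP factors Dbp and Hlf and the nuclear receptor gene Nr1d2, which encodes REV-ERB beta. The median of the list was -0.57 on day 1, -0.50 on day 3, -0.39 on day 7, -0.30 on day 14 and 0.03 on day 56. Dbp had 6.58, 6.65, 6.80 and 6.51 on day 1, 5.97, 6.57, 6.51 and 7.22 on day 3, 6.85, 7.14, 6.91 and 7.23 on day 7, and 7.12, 7.18, 6.36 and 7.19 on day 14. Its sham values were 8.39, 8.24, 8.67 and 8.31 and its day 56 values 8.40, 8.87, 8.17 and 8.28. All 16 arrays of days 1 to 14 were below all sham and all day 56 arrays, and the change on day 14 against day 3 was 0.40 (SE 0.22, limma adjusted p = 0.13). It passed the test without day 14 replicate 3 or day 3 replicate 4, with adjusted p-values of 0.0293 and 0.0153.

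Nr1d2 held an intermediate level, at 9.63, 9.77, 9.35 and 9.77 on day 14, against 9.17, 9.06, 8.94 and 9.35 on day 3 and 10.40 to 10.67 in sham. The rise of 0.50 (SE 0.18) passed the test (limma adjusted p = 0.0231), and the groups overlapped by 1 pair of arrays. The call was lost without day 14 replicate 2 or 4 or day 3 replicate 2 or 3, with adjusted p-values of 0.0565 to 0.072, with median centring (adjusted p = 0.0829) and with the mean of all its probe sets (adjusted p = 0.112). A further bright probe set of Nr1d2 differed from sham by -1.36 on day 3 and by -1.07 on day 14. Hlf differed from sham by -3.37 on day 1, and rose by 1.30 on day 7 (limma adjusted p = 0.0283) and by 2.08 on day 14 (limma adjusted p = 0.000775), both against day 3. On day 14 it had 9.09, 9.43, 10.004 and 9.25, still under the sham range of 10.05 to 10.49. The day 7 call was lost without any 1 of 5 arrays, day 7 replicates 1, 2 and 3 and day 3 replicates 3 and 4, with adjusted p-values of 0.0687 to 0.0939. It was also lost with only the 2 groups fitted (adjusted p = 0.0788) and without 3 arrays, day 7 replicates 2 and 3 and day 14 replicate 3 (0.97, adjusted p = 0.229). Klf15, a Krüppel-like factor induced by glucocorticoids, had 8.84, 8.70, 8.14 and 8.93 on day 14, against 7.77, 6.14, 7.30 and 7.79 on day 3, a rise of 1.40 (limma adjusted p = 0.0226) that no longer passed without day 14 replicate 1 or 4 or day 3 replicate 2 or 3, with adjusted p-values of 0.0501 to 0.0949. Nfil3, which represses D-box genes, ran the other way and lies outside the group. It was 2.19 above sham on day 1, 2.59 on day 3, 0.94 on day 14 and 0.32 on day 56. Whether Nfil3 bears on the clock genes of the group was not tested. The hour at which the cords were taken is not stated in the sources at hand.

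The windows of Dbp and Nr1d2 are shown because both genes stood at about the same level on day 7 and on day 14, below sham.
Dbp, chr1:105312006-105312255, plus strand: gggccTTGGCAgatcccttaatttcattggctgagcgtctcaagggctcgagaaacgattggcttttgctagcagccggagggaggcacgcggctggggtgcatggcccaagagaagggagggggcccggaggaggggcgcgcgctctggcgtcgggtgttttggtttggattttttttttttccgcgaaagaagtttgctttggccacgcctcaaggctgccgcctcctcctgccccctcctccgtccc
Nr1d2, chr15:9954784-9955033, plus strand: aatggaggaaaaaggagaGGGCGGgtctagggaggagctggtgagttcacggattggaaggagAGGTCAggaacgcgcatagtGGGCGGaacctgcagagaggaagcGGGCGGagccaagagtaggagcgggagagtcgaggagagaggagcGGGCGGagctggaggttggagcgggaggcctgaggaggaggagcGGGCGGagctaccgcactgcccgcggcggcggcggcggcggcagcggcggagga
Nr1d2 held 1 REV-ERB and ROR half-site and 5 GC boxes, and Dbp held 1 NFI half-site. An E-box occurred in 3 of the 67 windows (Crebrf, Klf15 and Magi1), or 4.48%, against 5.59% of all promoters. The REV-ERB and ROR half-site occurred in 5 (Amot, Ankrd45, Grin2c, Nr1d2 and Ptgds), or 7.46%, against 14.1% of all, and the D-box in 1 (Ptgds).

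Signalling genes of the group were scattered over pathways. From 33 measured BMP and TGF-beta genes the group holds Nog, Id4 and Inhbb, the last an activin subunit gene at 3.87 to 4.37 in sham and 1.94 to 3.53 on day 14. Hey1, a target of Notch, had 10.18, 10.51, 9.68 and 10.42 on day 14, against 8.96, 8.93, 9.21 and 9.20 on day 3, and rose by 1.123 (SE 0.24, limma adjusted p = 0.00104) without overlap. Its relative Hey2, outside the group, differed from sham by -1.47 on day 1 and rose by 1.51 (limma adjusted p = 6.12e-05). Of the Notch list, 11 of 25 genes were higher and 2 lower on day 14 against day 3, and of the BMP and TGF-beta list 16 of 33 were higher and 6 lower, where 33.8% of all genes were higher and 24% lower. The median difference from sham of either list lay between -0.12 and 0.11 on all 5 days. Ndp, which encodes the Wnt receptor ligand norrin, and Tspan12, a cofactor of its receptor, had differences from sham of -1.08 and -0.74 on day 3 and of -0.55 and -0.62 on day 14, and neither passed the test.

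Ret, the receptor of GDNF family ligands, stood at the sham level as early as day 3. It had 9.84, 10.50, 10.66 and 10.77 in sham, 6.96, 9.26, 9.16 and 6.61 on day 1 and 10.71, 10.29, 10.26 and 10.55 on day 3. Day 3 lay wholly within the sham range. On day 7 it had 9.54, 8.40, 10.45 and 10.39, and the change on day 14 against day 3 was -0.35 (SE 0.53, limma adjusted p = 0.595). Deptor, an inhibitor of mTOR, and Rimoc1 were the other genes within 0.4 of sham on day 3, at -0.12 and -0.27. On day 7 they stood at -1.20 and -0.66.

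Of 6 genes of axon guidance, adhesion and neurites in the group, grouped after their values were seen and from no list, 2 were called higher on day 14 against day 3. In that comparison 33.8% of all genes and 44 of the 83 were called higher, so the count does not set these genes apart. Sema6d, a transmembrane semaphorin, had 11.47, 11.03, 12.09 and 11.78 on day 7, against 10.58, 10.29, 10.37 and 10.32 on day 3, with 11.86 to 12.27 in sham. No array overlapped, and the rise was 1.20 (SE 0.21, limma adjusted p = 0.000284) on day 7 and 1.30 (SE 0.21, limma adjusted p = 9.67e-05) on day 14. Ablim1, an actin-binding protein, rose by 1.499 on day 14 against day 3 (limma adjusted p = 0.00328). The Slit receptor gene Robo2, the plexin gene Plxnb1, the adhesion molecule gene Ncam1 and the neurite gene Plppr4 did not pass the test, with day 3 differences from sham of -1.03, -0.97, -0.88 and -0.87 and day 14 differences of -0.39, -0.65, -0.41 and -0.42. Of 32 measured adhesion and gap junction genes, 15 were at least 1.5 below sham on day 1 and Ncam1 alone belongs to the group. The list median was -0.81 on day 3, -0.88 on day 14 and -0.84 on day 56. On day 14 against day 3, 4 of the 32 were higher and 4 lower, where 33.8% of all genes were higher and 24% lower.

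Genes of the general neuronal list were absent from the group. Of 31 measured general neuronal genes, 26 were at least 1.5 below sham on day 1 and 0 belong to the 83. Their list median was -3.07 on day 1, -0.78 on day 3, -2.05 on day 7, -2.34 on day 14 and -1.90 on day 56. On day 14 against day 3, 21 of the 31 were lower and 1 higher, where 24% of all genes were lower and 33.8% higher. Of the transmitter receptors, Grm5, a metabotropic glutamate receptor, Gabrg1, a GABA-A receptor subunit, and Grin2c recovered, out of 12 glutamate and 16 GABA and glycine genes that were at least 1.5 below sham on day 1. Grm5 was poorly resolved, with 10.07, 6.52, 8.16 and 8.40 in sham and 8.78, 8.85, 8.92 and 6.34 on day 56. Gabrg1 was -3.34, -0.76, -1.92, -0.89 and -0.33 from sham over the 5 days. Nsg2, an endosomal protein of neurons, differed from sham by -1.15 on day 3, -1.63 on day 14 and -0.09 on day 56.

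Detoxifying enzymes gave 2 members out of 37 measured genes, of which 4 were at least 1.5 below sham on day 1. Gsta4, the glutathione transferase of lipid aldehydes, had 9.08, 9.46, 9.91 and 10.20 on day 14, against 8.42, 7.61, 7.64 and 7.86 on day 3, a rise of 1.78 (SE 0.33, limma adjusted p = 0.000297) with no overlap. Gsta1 rose by 1.06 (limma adjusted p = 0.0285), a call lost without day 14 replicate 4 or day 3 replicate 2, 3 or 4, with adjusted p-values of 0.0512 to 0.132, and also with median centring (adjusted p = 0.0655) or only the 2 groups fitted (adjusted p = 0.113). Gstm7 lay just outside the group, at -6.07 from sham on day 1 and -0.413 on day 56. Over the list, 23 genes were higher and 5 lower on day 14 against day 3, where 33.8% of all genes were higher and 24% lower, with a list median of -0.44 on day 3 and 0.04 on day 14.

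Lists of a few other cell types held 1 or 2 members. From 21 measured pericyte and smooth muscle genes, 3 were at least 1.5 below sham on day 1, and Mylk and Sncg belong to the group. They differed from sham by -1.63 and -2.78 on day 1 and by -0.23 and -0.61 on day 14. The median of that list was 0.01 on day 1, so the list as a whole did not fall. Both genes are placed there by the list alone, and which cells their RNA came from was not tested. Opalin, a myelin protein of oligodendrocytes, differed from sham by -2.06, -0.87, -0.68, 0.01 and -0.37 over the 5 days, and is the single member among 38 measured myelin genes, 9 of which were at least 1.5 below sham on day 1. Rfx3, a transcription factor of ciliary genes, rose by 1.17 on day 14 against day 3 (SE 0.35, limma adjusted p = 0.0109; 0.0524 with only the 2 groups fitted). It is the single member among 25 measured ependymal and motile cilia genes, of which 21 were higher and 0 lower in that comparison, where 33.8% of all genes were higher and 24% lower. The list median moved little, at -0.17 from sham on day 3 and 0.10 on day 14. Of the 25 genes, 20 were within 0.4 of sham on day 3 and 22 on day 14, so most stood near sham on both days. On day 14 against day 7, 17 of the 25 were called higher. In that comparison, leaving out dim probe sets cut the share of all genes called higher from 21.8% to 0.162%. Of 35 endothelial and barrier genes, 18 homeostatic microglia genes and 26 oligodendrocyte precursor genes, 0 belong to the group.

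A rise between day 3 and day 14 was not general within the group. The change was below 0 for 7 genes, Nsg2, Ret, Deptor, Rimoc1, Gabrg1, Camk2n1 and Ndrg2, at -0.48 to -0.07, and none of these passed the test (limma adjusted p = 0.191 to 0.905). The median change over the 83 genes was 0.83, against 0.06 over all genes and -1.10 over the 470 genes that remained low.

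Lratd1 climbed from day to day up to day 14, although its day 3 and day 7 arrays overlapped. It had 7.94, 8.25, 8.47 and 8.18 in sham, 4.91, 4.84, 5.09 and 3.83 on day 1, 6.42, 5.59, 5.32 and 5.28 on day 3, 6.54, 5.98, 7.11 and 6.70 on day 7, and 7.95, 8.75, 8.09 and 8.69 on day 14. Day 14 overlapped with sham and with no earlier day. The rise was 1.79 (SE 0.29, limma adjusted p = 0.0113) on day 14 against day 7 and 2.72 (SE 0.29, limma adjusted p = 7.66e-07) on day 14 against day 3. Mro and Rapgef3, a cAMP-activated exchange factor, also passed on day 14 against day 7, by 1.03 (limma adjusted p = 0.0491) and 0.99 (limma adjusted p = 0.0427). Both calls were lost when dim probe sets were left out, and each was lost without most of the single arrays of the 2 days, with adjusted p-values of up to 0.211 for Mro and 0.181 for Rapgef3.

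Pnlip, which encodes pancreatic triglyceride lipase, overshot. Its values were 7.68, 7.26, 7.47 and 7.60 in sham, 4.68, 6.84, 6.49 and 4.37 on day 1, 6.06, 4.91, 4.82 and 6.82 on day 3, 11.22, 10.68, 11.16 and 11.69 on day 7, 8.09, 9.11, 8.02 and 9.21 on day 14, and 8.27, 7.26, 8.11 and 6.67 on day 56. Day 7 stood above every other array of the series. It rose by 5.54 (SE 0.54, limma adjusted p = 2.65e-07) on day 7 against day 3 and changed by -2.58 on day 14 against day 7 (limma adjusted p = 0.0113), the single gene of the group that was called lower. Without day 7 replicates 2 and 3 and day 14 replicate 3 that change was -2.65 (adjusted p = 0.0602). Other exocrine pancreas genes, picked after the Pnlip values were seen, were at or under the level of the control probe sets on day 7: Cel at 2.63 to 2.72, Prss1 at 1.95 to 1.97, Cpa1 at 2.65 to 2.67 and Ctrb1 at 2.18 to 2.23. Cela1 was at 4.40, 5.08, 2.32 and 2.34. The muscle gene Acta1 was at 8.38, 3.49, 8.73 and 3.48 on day 7. The part of RNA from other tissue in the Pnlip values was not tested.

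**Figure D4:**
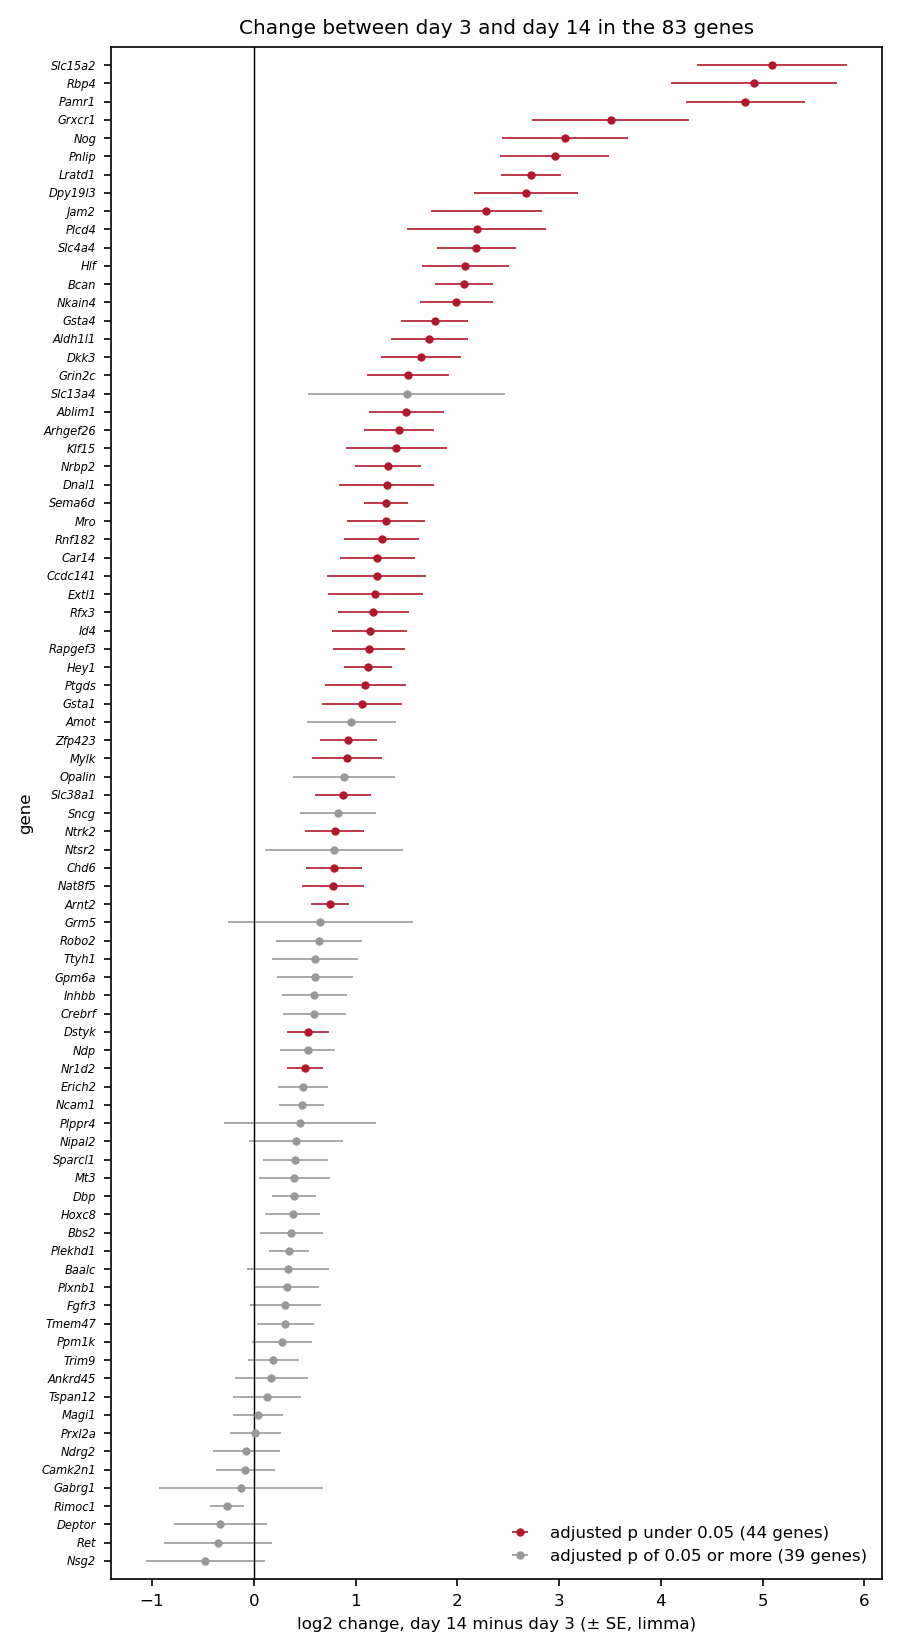
Log2 change on day 14 against day 3 for the 83 genes (points, with SE from limma), ordered by size; red marks the 44 genes with an adjusted p under 0.05. The largest changes are those of Slc15a2 (5.09), Rbp4 (4.92) and Pamr1 (4.83), and no gene was called lower.

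Probe sets of 1 gene did not always tell the same story. Of the 83 genes, 43 had further probe sets with the same symbol, 76 in all, of which 46 had a sham mean of at least 5. Of these 46, 30 were at least 1.5 below sham on day 1, 45 were below it, and 37 were within 0.4 of it on day 56. For Ntrk2, the probe set used here stood at -2.26, -1.28, -0.99, -0.49 and 0.05 from sham over the 5 days, while another bright one stood at -5.21, -1.58, -2.71, -2.81 and -2.31 and stayed low. Another pair of bright Ntrk2 probe sets stood at -0.28 and 0.23 on day 56. Magi1 also had a probe set at -2.34 from sham on day 56, and 1 of Ncam1 stood at 0.29 on day 1 and 0.66 on day 56, the single bright one not below sham on day 1. Which transcripts these probe sets read was not examined.

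The limits of the group are soft. Just inside the day 1 limit stood Trim9 at -1.505, Mt3 at -1.51 and Bbs2 at -1.52, and just outside Lgi4, Mmd2 and Pcdh18, at -1.4996, -1.498 and -1.494. Just inside the day 56 limit stood Rimoc1 at -0.397, Inhbb at 0.383 and Ppm1k at -0.382, and just outside Adcy2 at -0.408, Gstm7 at -0.413 and Nfe2l1 at -0.416. On day 56, 14 genes had all 4 arrays within the sham range and 8 had none, and 6 genes had all 4 arrays below all sham arrays, where 17.9% of all genes did.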

How the data were processed

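RNA of 24 rats, 1 per array, was measured on Affymetrix rat genome arrays. The authors made the deposited table with affy 1.12.2 and GCRMA, and its values are log2 signals, 1 for each probe set. The methods state that each time point was preprocessed separately, and whether the deposited table holds those runs or 1 joint run could not be settled, so a difference between days may include a difference between runs. No normalization was added here. The table has 31099 probe sets: 20832 with a single symbol in GEO's platform annotation, 436 with several and 9831 with none. Where a gene had several probe sets, the one with the highest average in the 24 arrays stood for it, giving 14218 genes. Promoters come from RefSeq (GRCr8), matched by gene ID.

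A model with 1 mean per group was fitted to every probe set (limma 3.58.1, R 4.3.3, eBayes, 18 residual and 1.08 prior degrees of freedom). Benjamini-Hochberg adjustment ran over the 20832 probe sets, separately for each comparison, and 0.05 was the threshold. The fit was tested on simulated data. The number of arrays limits the precision, and the arrays of a group are taken as separate rats. Arrays of a group correlated at 0.973 to 0.996.

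The members and the 42 gene lists were chosen with earlier results of these data known. Genes named are up to 4 members per list, the 10 largest day 1 differences, the 10 largest tested changes per direction on day 7 and day 14 against day 3, and the 3 genes on either side of each limit. Genes beyond this rule, such as Klf15, Ret, Deptor, Sema6d, Robo2, Ndrg2, Lcat, Nfil3 and Hey2, were chosen after their values were seen. Alternatives were quantile normalization, median centring, other probe set rules, a filter on dim probe sets, other thresholds, a replicate block, other fits, and leaving out single arrays or 3 that an earlier analysis of these values had left out (replicates 2 and 3 of day 7, replicate 3 of day 14).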

Additional observations from a re-analysis of the deposited data

Results flagged for a closer look

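Within groups of 4 arrays, the highest or lowest value was set against the others for 25 genes whose values are printed and for the per-array median of the 83 genes. Of 156 such groups 11 had a value set apart, where chance gives about 1 in 20.

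Sham replicate 1 was set apart in 3 of them: its median over the 83 genes was -0.17, against 0.07 to 0.09 in the other sham arrays, Slc15a2 was at 8.76 and Ptgds at 14.52, each below the other 3. Day 3 replicate 1 was high for Slc15a2 (4.69) and Rbp4 (4.82), where the others reached 3.71 and 2.71. Grm5, the glutamate receptor gene, was low in replicate 4 on day 7 (5.40, others 7.52 to 7.62) and on day 56 (6.34, others 8.78 to 8.92). Nog was low in day 7 replicate 2 (5.30, others 7.64 to 8.01), and Hlf in day 7 replicate 4 (7.71, others 8.91 to 9.08). Dbp was low in day 14 replicate 3 (6.36, others 7.12 to 7.19), and Jam2 in day 56 replicate 2 (10.98, others 11.65 to 11.74).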

How the results depend on the processing

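The number of genes meeting the rule was 74 to 103 when 1 array of sham, day 1 or day 56 was left out, and at least 69 of the 83 were then among them. It was 213 with a day 1 limit of 1.0 and 43 with one of 2.0. On day 14 against day 3 the genes called higher numbered 32 to 47 without single arrays and 33 to 50 under the other settings, lowest with median centring, and 27 of the 44 passed under every one of them, while 0 were called lower without any single array. On day 7 against day 3, 12 to 30 were called higher without single arrays and 13 with only the 2 groups fitted; 0 to 1 were called lower without single arrays, 1 with the mean of all probe sets and 2 at an unadjusted p of at most 0.05. On day 14 against day 7, 1 to 10 were called higher without single arrays, 11 at an unadjusted p of at most 0.05, and 1 with quantile normalization, median centring, the dim filter, 2 groups or without 3 arrays, the last of which also left 0 lower, where leaving out single arrays left 1. Replicate numbers did not pair the rats (correlation of same-numbered arrays -0.711 to 0.479, median 0.010), and with a replicate block the genes called higher numbered 43, 20 and 1 in day 14 against day 3, day 7 against day 3 and day 14 against day 7.

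The median difference from sham without single arrays was -1.52 to -1.35 on day 3, -1.17 to -0.75 on day 7 and -0.65 to -0.37 on day 14. Genes within 0.4 of sham numbered 3 to 4, 2 to 20 and 18 to 43 on these days without single arrays. They numbered 6 on day 3 and 6 on day 7 with the mean of all probe sets, 1 on day 7 with quantile normalization and 7 with median centring, and 11 on day 7 and 43 on day 14 without 3 arrays. Of 44 tests of single genes, 12 lost their call and 1 gained one under at least 1 setting, and none changed direction. The cause of these changes was not tested. Control probe sets stood at 2.62 to 2.91 on average per array, so changes of genes near that level may be cut short. The level is not a fixed end of the scale, since single values went lower, as Slc13a4 at 1.31 in day 7 replicate 4.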
